A study of Mus musculus with 12 samples.

Results

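The T and NK cell genes are 32 genes chosen by symbol from a deposited table of 56722 genes. They encode the T cell receptor and its CD3 chains, the coreceptors CD4 and CD8, the first signalling proteins behind the receptor, costimulatory and inhibitory receptors, lineage transcription factors, cytotoxic granule proteins and receptors of natural killer (NK) cells. All 32 were found, and 27 had enough reads to be tested. RNA was sequenced from whole kidneys of Pod-TRECK mice, in which podocytes carry a receptor for diphtheria toxin, so that the toxin injures that cell type. There were 4 groups of 3 mice, all of the Pod-TRECK genotype: controls that received no treatment, and mice killed 5, 14 or 21 days after 100 ng of toxin given into the peritoneum. The controls had no vehicle injection. The promoter behind the receptor and the strain, age and sex of the mice were not given in the sources used here.

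A T cell recognises antigen through a receptor of paired chains that cannot signal alone. The CD3 chains carry the signal into the cell, where the kinase LCK, brought in by CD4 or CD8, starts a cascade through ZAP70 and the adaptor LAT. NK cells share many of these surface and granule proteins but lack a rearranged receptor, and the healthy kidney holds small resident populations of both.

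Total counts ran from 31023852 to 46420299 per library, and most members were near the lower limit of what this depth shows: apart from Gata3, no member reached 50 counts in a control library. Values are raw counts, or counts-per-million values of the TMM-scaled library (CPM), where TMM scaling corrects for a few abundant genes taking up reads, and overlap between groups was judged on CPM. Summed tubule markers reached 37200 to 44900 CPM in controls. All 4 podocyte markers tested fell at day 5, from a sum of 229 to 249 CPM in controls to 81.3 to 97.8 CPM. Day-21 replicate 2 stood apart: the podocyte gene Nphs1, which encodes nephrin, had 514 counts in it, 17 and 22 in replicates 1 and 3, and 665 to 798 in the controls. Kap, an androgen-regulated gene of the proximal tubule, had 502809 counts in it and 26315 and 17881 in the others. Whether this mouse responded less to the toxin or the library belongs to another sample cannot be told apart here, so every day-21 mean holds 1 library of uncertain standing. TMM factors differed between groups. Over all genes, the median log2 change at day 14 against control was 0.08 with these factors and 0.8 with library totals only, and all changes given are relative to the TMM scale.

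Transcripts of the members were few before toxin. Of those tested, few were called at day 5, most were higher at day 14, and fewer were called at day 21. At day 5, 2 of the 27 tested members were called higher at an adjusted p under 0.05, a share of 7.41% against 9.77% of all 19821 genes tested. At day 14, 21 were called higher and 6 were not called, or 77.8% against 31.2% of all genes. At day 21, 13 were called higher and 14 were not called, or 48.1% against 24.3% of all genes. In a fit of only the 6 libraries compared, 3 of 17 tested members were called at day 21, which were Lck, Zap70 and Lat, while Cd3g (1.61, adjusted p = 0.0539), Cd4 (1.58, adjusted p = 0.0515), Klrd1 (1.24, adjusted p = 0.0572) and Cd5 (2.25, adjusted p = 0.0661) lost their call. Calls over all genes fell too in that fit, to 1286 higher and 345 lower, from 4821 and 3669 in the main fit. Of the 13 members, 4 were called in every setting in which they were tested. The median log2 fold change against control over the tested members was 0.34, 1.68 and 1.08 at the 3 times, beside 0, 0.08 and 0.07 over all genes. These comparisons share the control libraries. In whole-kidney RNA, more cells of a type and more RNA per cell cannot be told apart.

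**Figure D1:**
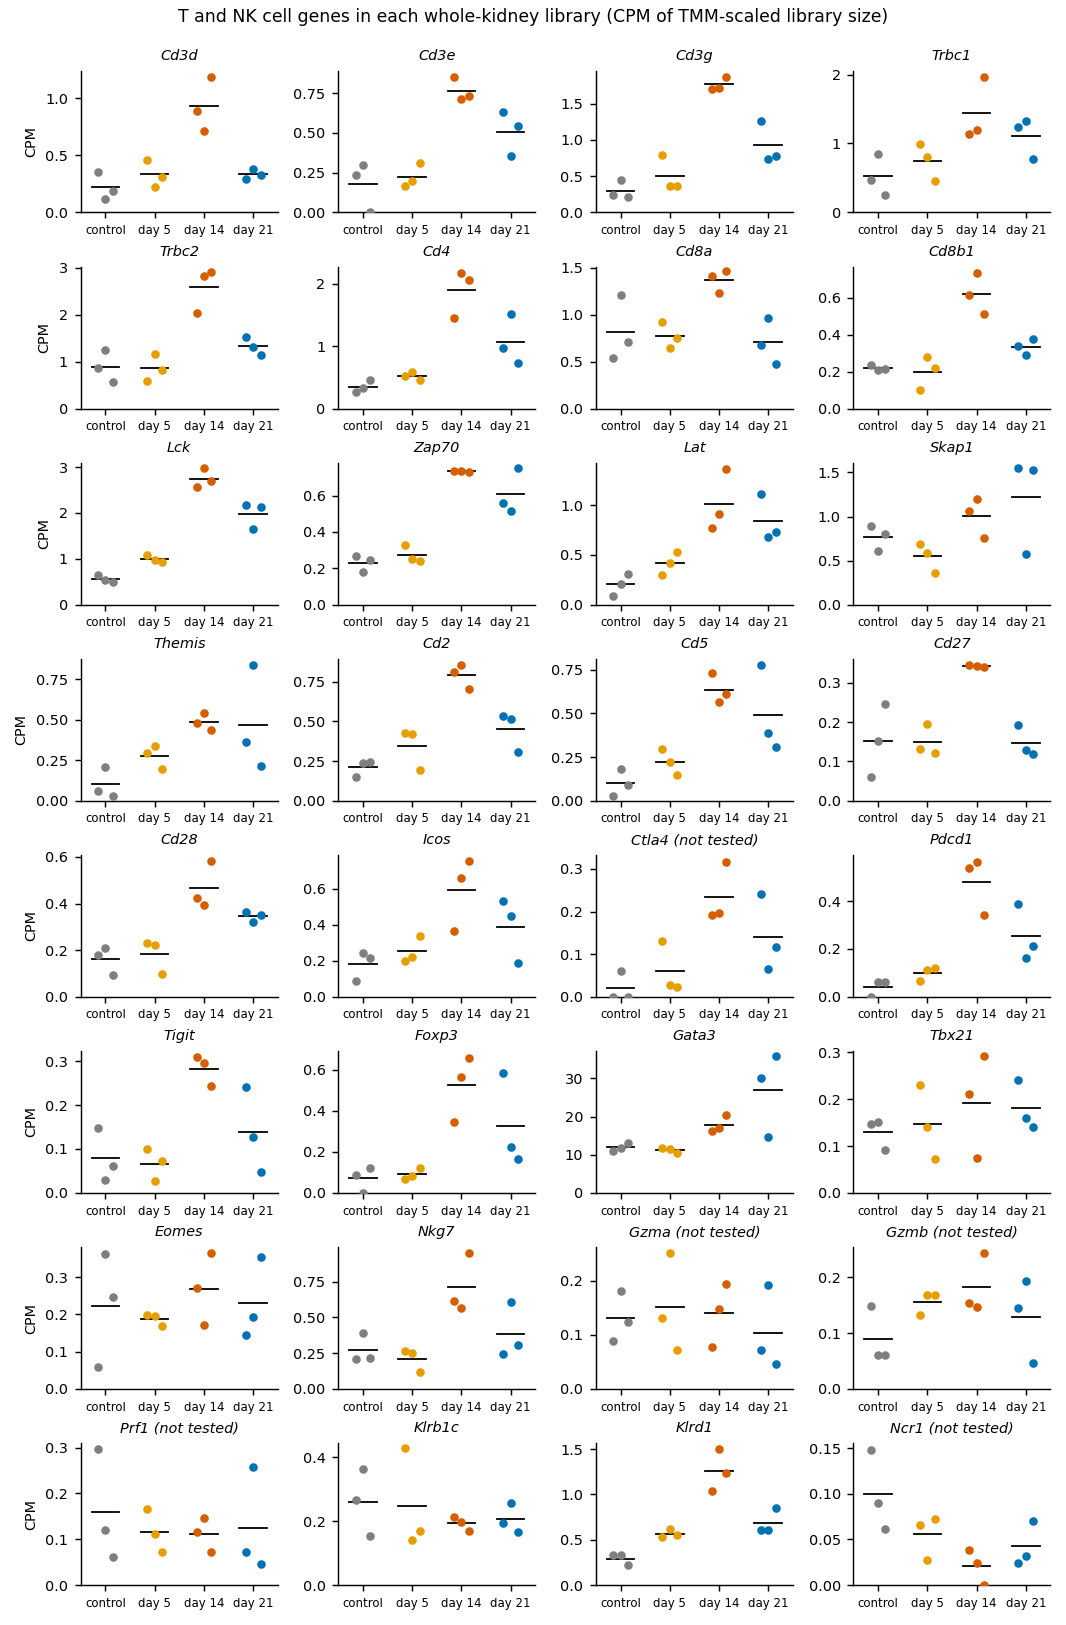
CPM of each of the 32 members in each of the 12 libraries, with 1 panel per gene on its own linear axis from 0, points for libraries and bars for group means. Most panels show the 3 day-14 libraries above the 3 controls, for example Lck at a mean of 2.75 CPM against 0.563 CPM, while the panels of Gzma, Prf1, Eomes and Klrb1c show groups that overlap.

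All 5 members of the T cell receptor and CD3 complex rose at day 14. Cd3g, Cd3d and Cd3e, which encode the gamma, delta and epsilon chains of CD3, lie next to each other on chromosome 9 (44880870 to 44891729, 44893084 to 44898637 and 44910038 to 44920925 of GRCm39). Cd3g had 8, 15 and 7 counts in controls, 24, 13 and 15 at day 5, 88, 70 and 77 at day 14, and 52, 23 and 33 at day 21. Its day-14 libraries were all above every other library, and its day-21 libraries were all above the controls. The log2 fold change of Cd3g was 2.53 ± 0.39 at day 14 (SE, adjusted p = 0.000302) and 1.61 ± 0.39 at day 21 (adjusted p = 0.0101).

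Cd3d had 12, 4 and 6 counts in controls, 14, 8 and 13 at day 5, 46, 29 and 49 at day 14, and 12, 12 and 14 at day 21. It rose by 2.06 ± 0.39 at day 14 (adjusted p = 0.00113), and at day 21 the libraries overlapped the controls, with a log2 fold change of 0.58 ± 0.42 (adjusted p = 0.28). Cd3e counts were 8, 10 and 0 in controls, 5, 7 and 13 at day 5, 44, 29 and 30 at day 14, and 26, 11 and 23 at day 21. Cd3e rose by 2.06 ± 0.60 at day 14 (adjusted p = 0.0116) and was at 1.49 ± 0.62 at day 21 (adjusted p = 0.0705), with all 3 day-21 libraries above the controls. Without day-21 replicate 2 Cd3e was called at day 21 (1.67, adjusted p = 0.0312). The 3 CD3 chains therefore had the same direction at day 14 and different calls at day 21, a difference between genes that was not tested.

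Trbc1 and Trbc2 encode the 2 alternative constant regions of the receptor's beta chain and stand on chromosome 6 (41515152 to 41516815 and 41523664 to 41525286). Their coding sequences are near copies, which bears on how far their counts can be separated: of 518 aligned bases, 495 are identical, or 95.6%, with an identical run of 259 bases. The last 150 bases, from position 369 of the coding sequence, hold 22 of the 23 differences, and these are shown in capitals (GENCODE M21 transcripts, 5′ to 3′, on the strand of the gene).
Trbc1: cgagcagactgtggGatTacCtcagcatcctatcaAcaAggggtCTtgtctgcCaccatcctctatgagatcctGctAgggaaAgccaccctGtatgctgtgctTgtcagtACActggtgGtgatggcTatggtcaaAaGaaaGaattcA
Trbc2: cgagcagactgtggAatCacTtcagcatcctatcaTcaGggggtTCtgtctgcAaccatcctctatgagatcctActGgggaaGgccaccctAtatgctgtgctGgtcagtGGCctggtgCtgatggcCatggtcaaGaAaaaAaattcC
Reads from the rest of the coding sequence can match both genes, and the treatment of such reads in the authors' counting is not stated, so the split between Trbc1 and Trbc2 is uncertain.

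Trbc2 had 29, 41 and 18 counts in controls, 18, 41 and 34 at day 5, 106, 115 and 119 at day 14, and 63, 41 and 48 at day 21. Trbc1 had 16, 28 and 8, then 30, 29 and 19, then 59, 49 and 81, and last 51, 41 and 33 counts in the same order of groups. In both genes the 3 day-14 libraries were above the controls on the CPM scale, and at day 21 they overlapped. Trbc2 rose by 1.54 ± 0.32 at day 14 (adjusted p = 0.00166) and Trbc1 by 1.45 ± 0.44 (adjusted p = 0.0142), and at day 21 they were at 0.58 ± 0.32 (adjusted p = 0.159) and 1.08 ± 0.44 (adjusted p = 0.0697). The Trbc1 call at day 14 was lost without control replicate 1, control replicate 3 or day-14 replicate 3. Trac, the constant region of the alpha chain and not a member, had 35, 23 and 21 counts in controls and 84, 71 and 69 at day 14, and rose by 1.08 ± 0.28 (adjusted p = 0.00636). Trdc, the constant region of the delta chain of gamma-delta T cells, had 0, 5 and 1 counts in controls, 35, 13 and 14 at day 14, and 20, 5 and 15 at day 21. Cd247, the zeta chain of the complex and also not a member, had 9, 7 and 11 counts in controls and 22, 27 and 21 at day 14. Cd247 was not called at day 14 (0.95 ± 0.38, adjusted p = 0.0509) and was called at day 21 (1.07 ± 0.39, adjusted p = 0.0448).

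The coreceptor genes moved unequally. Cd4, the coreceptor of helper and regulatory T cells, had 9, 11 and 15 counts in controls, 16, 21 and 19 at day 5, 75, 89 and 85 at day 14, and 40, 47 and 31 at day 21. All day-14 and day-21 libraries were above the controls. Cd4 rose by 2.41 ± 0.33 at day 14 (adjusted p = 0.000158) and by 1.58 ± 0.33 at day 21 (adjusted p = 0.00557). Cd8a, the alpha chain of the coreceptor of cytotoxic T cells, had 18, 40 and 23 counts in controls, 28, 23 and 31 at day 5, 73, 50 and 60 at day 14, and 28, 30 and 20 at day 21.

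Cd8a was at 0.74 ± 0.33 at day 14 (adjusted p = 0.0696), not called although its 3 day-14 libraries lay just above the highest control, and at -0.23 ± 0.34 at day 21 (adjusted p = 0.598). Without day-21 replicate 2, Cd8a was called at day 14 (0.73, adjusted p = 0.0406), and without control replicate 2, the highest control, it was at 1.09 (adjusted p = 0.0194). With library totals it was called at day 14 (1.47, adjusted p = 0.00105) and was at 0.22 at day 21. Cd8b1, the beta chain that pairs with CD8 alpha on conventional cytotoxic T cells, had 8, 7 and 7 counts in controls, 3, 10 and 9 at day 5, 32, 30 and 21 at day 14, and 14, 9 and 16 at day 21. It rose by 1.47 ± 0.32 at day 14 (adjusted p = 0.00255) and was at 0.60 ± 0.34 at day 21 (adjusted p = 0.175).

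Within a library, the ratio of Cd8a to Cd4 counts needs no scaling between libraries. This ratio was 2, 3.64 and 1.53 in controls, 1.75, 1.1 and 1.63 at day 5, 0.973, 0.562 and 0.706 at day 14, and 0.7, 0.638 and 0.645 at day 21. Every control and day-5 library had more Cd8a than Cd4 counts, and every day-14 and day-21 library had fewer. The log2 ratio differed among the 4 groups (exact permutation test over all 369600 assignments of the 12 libraries, p = 0.00214, adjusted over the 4 ratios examined 0.00429). The ratio was chosen after seeing the data, which the adjustment does not cover, so the p-value is not that of a test set in advance. The difference from control was -1.62 at day 14 and -1.76 at day 21, each with an exact permutation p = 0.1, the smallest that 3 libraries against 3 allow. For Cd8b1 to Cd4 the ratio was 0.889, 0.636 and 0.467 in controls and 0.427, 0.337 and 0.247 at day 14, and the 4 groups did not pass (exact permutation p = 0.236, adjusted 0.315). Some conventional dendritic cells of the cross-presenting kind, chiefly those of lymphoid organs, also express Cd8a. All 7 markers of conventional dendritic cells rose at day 14, beside 31.2% of all genes. Their summed level was 10 to 11.8 CPM in controls and 44.2 to 46.1 CPM at day 14, with Xcr1 at 2.08 ± 0.54 and Clec9a at 1.69 ± 0.35, and their part in the Cd8a counts was not tested. The part of cells other than T cells in the Cd4 counts was not tested either. The ratio is thus one of reads and not of T cell types.

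**Figure D2:**
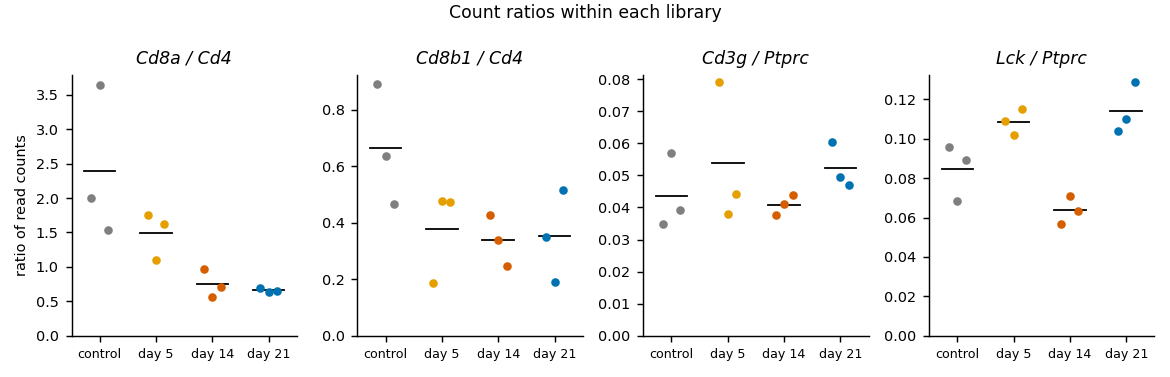
Ratio of read counts within each library for Cd8a to Cd4, Cd8b1 to Cd4, Cd3g to Ptprc and Lck to Ptprc, with points for the 12 libraries, bars for group means and linear axes from 0. Cd8a to Cd4 was above 1 in all control and day-5 libraries and under 1 in all day-14 and day-21 libraries, and Lck to Ptprc was lowest on average at day 14.

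Of the 5 genes of proximal signalling, 4 rose at day 14 and at day 21. Lck, the kinase that phosphorylates CD3 first, had 22, 18 and 16 counts in controls, 33, 35 and 39 at day 5, 133, 121 and 111 at day 14, and 90, 51 and 91 at day 21. It was the member with the smallest adjusted p at days 5, 14 and 21, and the groups stood in the same order in every library: controls lowest, then day 5, day 21 and day 14. Lck rose by 0.83 ± 0.20 at day 5 (adjusted p = 0.0192), by 2.28 ± 0.20 at day 14 (adjusted p = 1.27e-05) and by 1.81 ± 0.20 at day 21 (adjusted p = 0.000309). The day-5 call was lost when control replicate 2, control replicate 3 or any day-5 library was left out.

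Zap70, the kinase recruited to phosphorylated CD3, had 9, 6 and 8 counts in controls, 38, 30 and 30 at day 14, and 23, 16 and 32 at day 21. It rose by 1.65 ± 0.26 at day 14 (adjusted p = 0.000395) and by 1.39 ± 0.27 at day 21 (adjusted p = 0.0038). Lat, the membrane adaptor on which signalling complexes assemble, had 3, 7 and 10 counts in controls, 40, 37 and 56 at day 14, and 46, 21 and 31 at day 21. Both genes had all day-14 and all day-21 libraries above the controls, and Lat rose by 2.31 ± 0.42 at day 14 (adjusted p = 0.00089) and by 2.04 ± 0.43 at day 21 (adjusted p = 0.00542).

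Themis, a regulator of receptor signalling needed in thymic selection, had 2, 7 and 1 counts in controls, 9, 12 and 8 at day 5, 25, 22 and 18 at day 14, and 15, 26 and 9 at day 21. Its highest day-21 count came from replicate 2, the library nearest to controls in podocyte and tubule transcripts. Themis rose by 2.24 ± 0.63 at day 14 (adjusted p = 0.0101) and by 2.15 ± 0.64 at day 21 (adjusted p = 0.0223). Without day-21 replicate 2 the day-21 value was 1.47 (adjusted p = 0.0449), and the call was lost without control replicate 1 (1.85, adjusted p = 0.0785) or control replicate 3 (1.71, adjusted p = 0.0826). Skap1, an adaptor that links the receptor to integrins, did not pass at any time: it had 30, 20 and 26 counts in controls, 21, 21 and 15 at day 5, 55, 49 and 31 at day 14, and 64, 18 and 65 at day 21. Skap1 was at 0.39 ± 0.38 at day 14 (adjusted p = 0.388) and 0.68 ± 0.38 at day 21 (adjusted p = 0.163), and without day-21 replicate 2 it was called at day 21 (1, adjusted p = 0.0107).

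All 5 genes of adhesion and costimulation rose at day 14. Cd2, an adhesion receptor of T and NK cells, had 5, 8 and 8 counts in controls and 42, 35 and 29 at day 14, a rise of 1.89 ± 0.36 (adjusted p = 0.00115). Cd5, a scavenger receptor family protein that tunes receptor signalling, had 1, 6 and 3 counts in controls, 38, 23 and 25 at day 14, and 32, 12 and 13 at day 21. The day-14 libraries of both genes were well clear of the controls, and Cd5 rose by 2.62 ± 0.53 at day 14 (adjusted p = 0.00156) and by 2.25 ± 0.54 at day 21 (adjusted p = 0.00983).

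Cd28, the main costimulatory receptor, and Icos, a related receptor induced on activation, lie on either side of Ctla4 on chromosome 1 (Cd28 at 60755959 to 60812518, Icos at 61017086 to 61039479). Cd28 had 6, 7 and 3 counts in controls, 22, 16 and 24 at day 14, and 15, 10 and 15 at day 21, and rose by 1.52 ± 0.38 (adjusted p = 0.00535) and 1.09 ± 0.39 (adjusted p = 0.0439). Icos had 3, 8 and 7 counts in controls, 19, 27 and 31 at day 14, and 22, 14 and 8 at day 21. Icos rose by 1.68 ± 0.49 at day 14 (adjusted p = 0.0115), a call lost without control replicate 1, and its day-21 libraries overlapped the controls. Cd27, a costimulatory receptor of the TNF receptor family, had 2, 5 and 8 counts in controls, 4, 7 and 5 at day 5, 18, 14 and 14 at day 14, and 8, 4 and 5 at day 21.

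Cd27 rose by 1.17 ± 0.41 at day 14 (adjusted p = 0.0306) and was at -0.04 ± 0.47 at day 21 (adjusted p = 0.963). Its day-14 call was kept in 1 of the 6 fits that leave out a control or day-14 library. Cd27 shares positions with Vamp1 on the other strand, which had 654 counts over the controls and 693 at day 14, and without knowledge of the strand setting their reads cannot be told apart. At day 21 Cd2 rose by 1.07 ± 0.38 (adjusted p = 0.0414), but without day-21 replicate 2 Cd2 was at 0.96 (adjusted p = 0.0663), and Cd2 and Cd28 each kept that call in 1 of the 6 fits that leave out a control or day-21 library.

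The inhibitory receptors had few control counts. Pdcd1, which encodes PD-1, a checkpoint receptor of activated T cells, had 0, 2 and 2 counts in controls, 2, 4 and 5 at day 5, 28, 23 and 14 at day 14, and 16, 5 and 9 at day 21. It rose by 3.48 ± 0.60 at day 14 (adjusted p = 0.000625) and by 2.58 ± 0.65 at day 21 (adjusted p = 0.0114), and the day-14 and day-21 libraries were all above the controls. Tigit, a receptor that competes for the same ligands as an activating receptor, had 5, 1 and 2 counts in controls, 3, 1 and 3 at day 5, 16, 12 and 10 at day 14, and 10, 4 and 2 at day 21. Tigit rose by 1.77 ± 0.60 at day 14 (adjusted p = 0.0255), a call kept in 2 of the 6 fits without a control or day-14 library, and was at 0.77 ± 0.67 at day 21 (adjusted p = 0.366).

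Ctla4, the checkpoint receptor that competes with CD28, was too low to be tested (chromosome 1, 60926159 to 60954991). It had 0, 2 and 0 counts in controls, 4, 1 and 1 at day 5, 10, 8 and 13 at day 14, and 10, 2 and 5 at day 21. Every day-14 library was above every control, and the pooled counts, 31 and 2, gave a scaled ratio of 11.5 (exact 95% counting interval 2.93 to 99.3). At day 21 the ratio was 7.34 (1.74 to 65.5). In an edgeR fit with no filter on low counts Ctla4 was at 3.34 at day 14 (adjusted p = 0.0115) and 2.66 at day 21 (adjusted p = 0.0708). These intervals are relative to TMM-scaled library sizes and cover counting error only, since pooling leaves out differences between mice and the reads carry no molecular identifiers. Rpl18-ps1, a pseudogene on the same strand, shares positions with Ctla4 and had 18 counts over the controls and 60 at day 14.

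Of the 4 transcription factors of T cell lineages, Foxp3 was called at days 14 and 21 and Gata3 at day 21, and Tbx21 and Eomes at no time. Foxp3, the factor that defines regulatory T cells, had 3, 0 and 4 counts in controls, 2, 3 and 5 at day 5, 18, 23 and 27 at day 14, and 24, 7 and 7 at day 21. Its day-14 libraries were all above the controls, and at day 21 replicate 1 was far above the other 2. Foxp3 rose by 2.82 ± 0.69 at day 14 (adjusted p = 0.00486) and by 2.16 ± 0.73 at day 21 (adjusted p = 0.0348), and the day-21 call was kept in 2 of the 6 fits that leave out a control or day-21 library. The gene stands on chromosome X (7439883 to 7461484) and shares positions with Ccdc22 on the other strand, whose summed counts were 1662 in the control group and 2586, 2315 and 2035 in the toxin groups in order of time. Flicr, on the same strand as Foxp3, also shares positions with it and had 6, 8, 24 and 15 counts over the 4 groups. The part of shared reads in the Foxp3 values was not tested.

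Tbx21, which encodes T-bet, the factor of type 1 helper and cytotoxic cells, had 5, 5 and 3 counts in controls and 11, 3 and 12 at day 14. Eomes, its relative in NK and memory cytotoxic cells, had 2, 12 and 8 counts in controls and 14, 7 and 15 at day 14. In both genes the groups overlapped at every time, with log2 fold changes at day 14 of 0.55 ± 0.54 for Tbx21 (adjusted p = 0.396) and 0.27 ± 0.53 for Eomes (adjusted p = 0.672). The pooled day-14 ratio was 1.49 (95% counting interval 0.737 to 3.15) for Tbx21 and 1.22 (0.696 to 2.17) for Eomes, so the intervals hold both no change and a 2-fold rise.

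Gata3, the factor of type 2 helper cells and also a factor of the collecting duct, was the most abundant member per length. It had 371, 388 and 425 counts in controls, 355, 409 and 431 at day 5, 837, 698 and 833 at day 14, and 1246, 459 and 1528 at day 21. Per kilobase of gene model its mean level was 2.37 CPM in controls, against 0.87 for Trbc2, 0.665 for Trbc1 and 0.192 for Lck. On the CPM scale all day-14 and day-21 libraries were above the controls, and day-21 replicates 1 and 3 were the highest of all. Gata3 was at 0.58 ± 0.25 at day 14 (adjusted p = 0.066) and rose by 1.18 ± 0.25 at day 21 (adjusted p = 0.00612). In a fit of only the 6 libraries compared the day-21 call was lost (1.18, adjusted p = 0.0587) and the day-14 value was called (0.55, adjusted p = 0.00183), as it was with library totals (1.31, adjusted p = 0.00377). Without day-21 replicate 2 Gata3 was called at day 14 (0.57, adjusted p = 0.000613) and was higher at day 21 than at day 14 (0.89, adjusted p = 0.000587).

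Of 6 collecting duct and distal nephron markers, 3 rose at day 21, as Gata3 did, and 3 were not called. Aqp2, the vasopressin-regulated water channel of the collecting duct, had 2844, 3024 and 4179 counts in controls, 1851, 2189 and 2209 at day 5, 6179, 5290 and 5798 at day 14, and 9398, 5321 and 14054 at day 21. It was at 0.36 ± 0.22 at day 14 (adjusted p = 0.186) and rose by 1.26 ± 0.23 at day 21 (adjusted p = 0.0028), with replicate 2 again the lowest of the 3. Aqp3, another marker, had 76.3 to 103 CPM in controls, 38.1 to 52.7 CPM at day 14 and 81.7 to 108 CPM at day 21. Scnn1g also overlapped the controls at day 21, with 35.5 to 41.2 CPM in controls and 40.1 to 49.6 CPM at day 21. Of the 6 markers, 1 rose and 2 fell at day 14, and 3 rose at day 21. Over all 19821 genes tested, 6189 rose and 5701 fell at day 14, and 4821 rose at day 21. The summed level of the 6 markers was 294 to 386 CPM in controls, 186 to 215 CPM at day 5, 315 to 438 CPM at day 14 and 410 to 765 CPM at day 21, and no marker was at 0. Of 4 tested markers of type 2 innate lymphoid cells, which also use GATA3, 3 rose at days 14 and 21, among them the interleukin 33 receptor Il1rl1 at 3.46 ± 0.24 at day 14 (adjusted p = 4.96e-06) and 1.74 ± 0.25 at day 21 (adjusted p = 0.00101). Their defining cytokines were nearly absent, with Il13 at 0 counts in all 12 libraries and Il5 at 1 count in each of 2 libraries, and Areg and Hs3st1, the other markers that rose, were at 6.68 ± 0.75 and 2.62 ± 0.41 at day 14. The summed level of the list was 62.3 to 75 CPM in controls, 67.9 to 71.4 CPM at day 14 and 48.6 to 72 CPM at day 21, nearly all of it from Rora, which had 61.2 to 74.1 CPM in controls and was at -0.16 ± 0.12 at day 14 (adjusted p = 0.269). The part of either cell type in the Gata3 values was not tested.

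**Figure D3:**
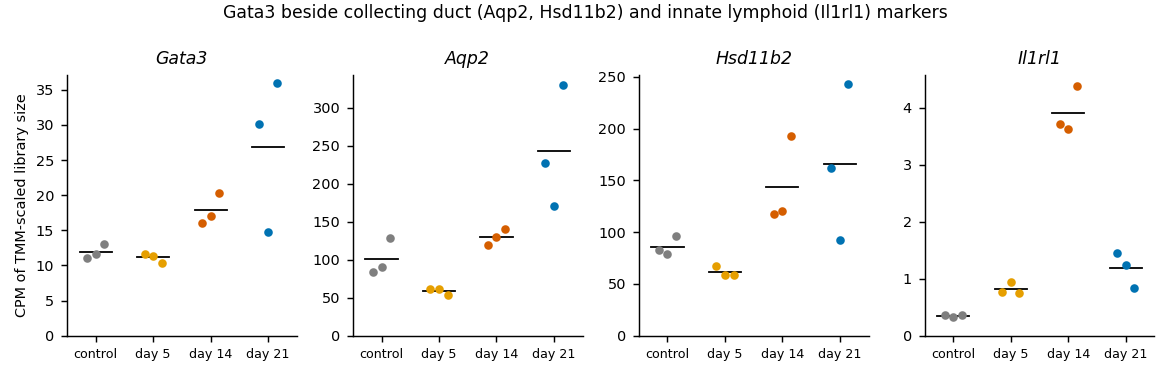
CPM of Gata3, of the collecting duct markers Aqp2 and Hsd11b2 and of the innate lymphoid marker Il1rl1 in each of the 12 libraries, with bars for group means and linear axes from 0. Gata3, Aqp2 and Hsd11b2 had their highest libraries at day 21, with replicate 2 the lowest of the 3 there, while Il1rl1 was highest at day 14. Other collecting duct and distal nephron markers are not shown, among them Aqp3 and Scnn1g, which overlapped the controls at day 21.

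Of the 4 cytotoxic granule genes, 1 had enough reads to be tested. Nkg7, a membrane protein of cytotoxic granules, had 7, 13 and 7 counts in controls, 8, 9 and 5 at day 5, 32, 23 and 39 at day 14, and 10, 19 and 13 at day 21. It rose by 1.37 ± 0.43 at day 14 (adjusted p = 0.0173), a call lost without control replicate 1, control replicate 3 or day-14 replicate 3, and was at 0.47 ± 0.46 at day 21 (adjusted p = 0.417). Gzma, Gzmb and Prf1, which encode granzymes A and B and the pore-forming protein perforin, were too low to be tested.

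Gzma had 3, 6 and 4 counts in controls, 4, 9 and 3 at day 5, 4, 6 and 8 at day 14, and 3, 6 and 2 at day 21. Prf1 had 10, 4 and 2 counts in controls, 5, 4 and 3 at day 5, 6, 6 and 3 at day 14, and 3, 8 and 2 at day 21. Gzmb had 5, 2 and 2 counts in controls, 4, 6 and 7 at day 5, 8, 6 and 10 at day 14, and 6, 6 and 2 at day 21. The groups overlapped on the CPM scale in all 3 genes at every time. For Gzmb the overlap at day 14 was narrow, 0.147 CPM in day-14 replicate 2 against 0.148 CPM in control replicate 1, and depended on the TMM factors. Its raw day-14 counts were all above those of the controls, although the day-14 totals were lower (31023852 to 39493106 against 40426124 to 42654903). The pooled day-14 ratio was 1.03 (95% counting interval 0.477 to 2.28) for Gzma, 0.697 (0.321 to 1.5) for Prf1 and 1.98 (0.889 to 4.84) for Gzmb. All 3 intervals hold a ratio of 1 on the TMM scale, and intervals on library totals were not computed.

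RUNX and ETS factors are known regulators of T and NK cell genes, so the promoters of a CD3 chain that rose and of a granzyme at a few counts are shown side by side. They are the 250 bases before the RefSeq start (GRCm38.p6, 5′ to 3′ on the strand of the gene), Cd3e at chr9:45009612-45009861 on the minus strand and Gzmb at chr14:56262335-56262584 on the minus strand. The start is the one the RefSeq table gives, and the windows searched are these 250 bases. The bases after the start were found in a GENCODE M21 transcript of the gene for Cd3e but not for Gzmb, so the Gzmb start was not matched to that annotation. Capitals mark the ETS letters AGGAAG and the RUNX letters TGTGGT on either strand.
Cd3e: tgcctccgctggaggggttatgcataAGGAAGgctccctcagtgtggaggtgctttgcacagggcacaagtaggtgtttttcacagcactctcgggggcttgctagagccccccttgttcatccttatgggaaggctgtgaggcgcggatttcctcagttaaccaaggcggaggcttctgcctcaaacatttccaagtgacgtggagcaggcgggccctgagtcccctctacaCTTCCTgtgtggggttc
Gzmb: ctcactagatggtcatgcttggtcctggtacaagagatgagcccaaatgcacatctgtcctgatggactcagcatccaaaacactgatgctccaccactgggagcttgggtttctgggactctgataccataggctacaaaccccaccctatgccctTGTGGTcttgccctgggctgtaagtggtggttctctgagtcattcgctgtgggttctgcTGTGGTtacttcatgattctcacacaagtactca
The Cd3e window held 2 ETS matches and 0 RUNX matches, and the Gzmb window held 2 RUNX matches and 0 ETS matches. Promoter windows of 23 members were matched by symbol. These genes have 29 promoters in the table. RUNX letters were in 10 of the 29, those of Gzma, Gzmb, Prf1, Nkg7, Ncr1, Klrb1c, Lck, Zap70 and Tigit, beside 14% of all 32851 promoters. ETS letters were in 15 of the 29, beside 29.5% of all promoters, and the E-box letters CAGCTG in 2, beside 13%. RUNX and ETS letters were thus held both by members that rose and by members that were not called, and a match is a run of letters, not a bound site.

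Of the 3 NK receptors Klrd1 was called at all 3 times, Klrb1c at none, and Ncr1 was too low to be tested, and the differences between these genes were not tested. Klrd1, which encodes CD94, a partner chain of inhibitory and activating receptors on NK cells and some cytotoxic T cells, had 11, 11 and 7 counts in controls, 16, 22 and 23 at day 5, 54, 61 and 51 at day 14, and 25, 19 and 36 at day 21. Each toxin group was above the controls in all 3 libraries, and day 14 was above day 21. Klrd1 rose by 0.95 ± 0.28 at day 5 (adjusted p = 0.0402), by 2.10 ± 0.26 at day 14 (adjusted p = 0.000102) and by 1.23 ± 0.27 at day 21 (adjusted p = 0.00667). The day-5 call was lost in each of the 6 fits that leave out a control or day-5 library.

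Klrb1c, which encodes NK1.1, a defining NK marker in some mouse strains, had 9, 12 and 5 counts in controls, 13, 5 and 7 at day 5, 11, 8 and 7 at day 14, and 8, 8 and 7 at day 21. Its groups overlapped throughout, with a log2 fold change of -0.43 ± 0.46 at day 14 (adjusted p = 0.437), which was 0.30 with library totals. Gm44511 shares positions and strand with Klrb1c and had 20, 21, 163 and 56 counts over the 4 groups, so the counts of both depend on how shared reads were treated. Ncr1, which encodes NKp46, the most specific NK receptor among the members, had 5, 3 and 2 counts in controls, 2, 1 and 3 at day 5, 2, 1 and 0 at day 14, and 1, 1 and 3 at day 21. All 3 day-14 libraries were below the controls on the CPM scale, a separation that depended on the TMM factors. Control replicate 3 and day-14 replicate 1 both had 2 counts, from totals of 40426124 and 39493106 and with factors of 0.802 and 1.31. Pooled over the group, Ncr1 had 3 counts at day 14 and 10 in controls, and the scaled ratio was 0.223 (95% counting interval 0.0394 to 0.866). This interval is also relative to TMM-scaled library sizes and covers counting error only. Fitted with no filter on low counts, Ncr1 was at -2.03 (adjusted p = 0.0809).

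Of 21 further NK cell genes, 10 could be tested, and 7 of these rose at day 14 with a median of 2.25, beside 31.2% of all genes. The 2 with the smallest adjusted p were Tyrobp, a signalling adaptor also used by myeloid cells, at 3.25 ± 0.27 (adjusted p = 1.12e-05), and Slamf7, a receptor of NK cells, plasma cells and macrophages, at 2.30 ± 0.26 (adjusted p = 6.02e-05). The Ly49 receptor genes, which are closer to NK cells alone, were near 0: Klra8 had 1, 1 and 1 counts in controls and 0, 2 and 0 at day 14, and Klra4 had 0, 2 and 1, and 2, 0 and 2. Other receptors of the list had more counts at day 14: Klrk1 had 14, 26 and 8 in controls and 101, 72 and 67 at day 14. Cd244a had 5, 6 and 11, and 57, 67 and 60, and the low Klri2 had 1, 2 and 0, and 13, 6 and 12. Klre1 had 4, 7 and 1, and 2, 3 and 6, and of the 10 tested genes 3 were not called and 0 fell.

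**Figure D4:**
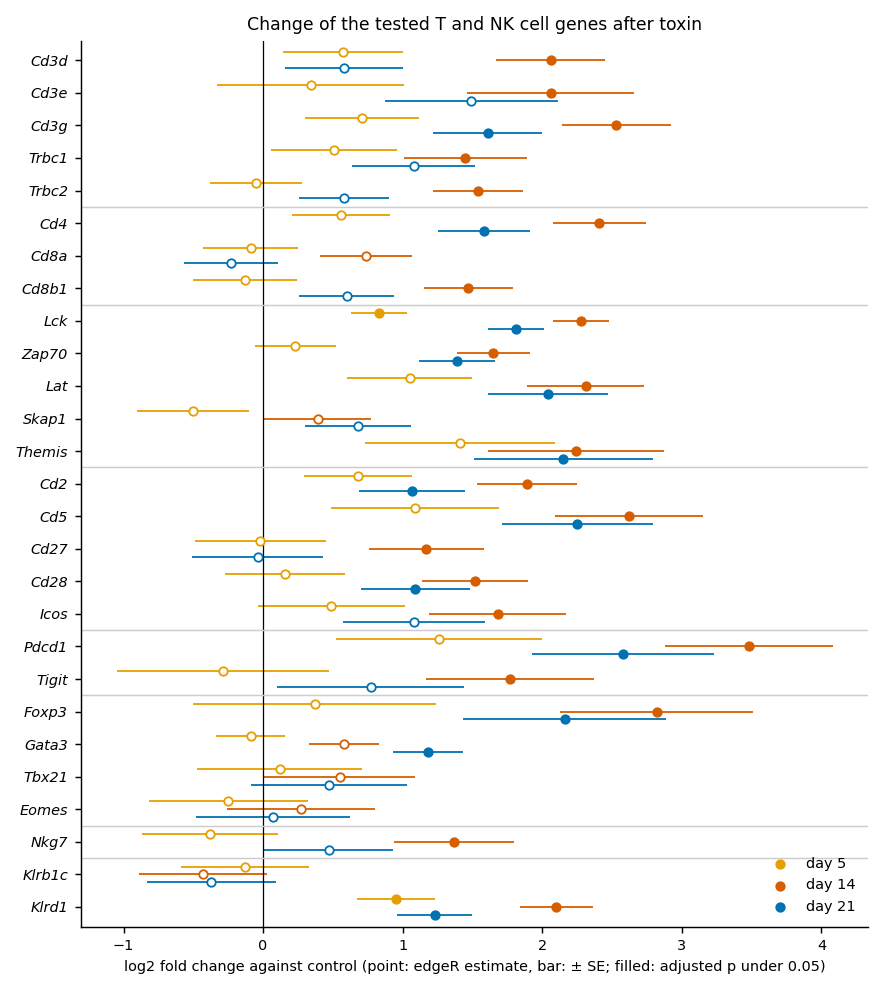
Log2 fold change against control of the 27 tested members at days 5, 14 and 21, with bars of 1 standard error of the edgeR fit, n = 3 libraries per group, filled where the adjusted p was under 0.05. The day-14 points of 21 members are filled, from Cd27 at 1.17 to Pdcd1 at 3.48, while Cd8a, Skap1, Tbx21, Eomes and Klrb1c are open at all 3 times.

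Between day 5 and day 14, 20 of the 27 tested members rose, or 74.1% against 24.7% of all genes, with a median of 1.36. Foxp3 rose by 2.45 ± 0.65 (adjusted p = 0.00994), Pdcd1 by 2.21 ± 0.50 (adjusted p = 0.00466), Cd4 by 1.85 ± 0.31 (adjusted p = 0.00102) and Lck by 1.45 ± 0.19 (adjusted p = 0.000253) over these 9 days. The 7 members that did not pass were Cd8a, Trbc1, Skap1, Themis, Tbx21, Eomes and Klrb1c. Of these, Themis already stood at 1.41 ± 0.68 at day 5 against control (adjusted p = 0.197). Without day-5 replicate 3 the number that rose was 13.

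Between day 14 and day 21, 2 members were called lower, 7.41% against 7.57% of all genes, and 25 were not called, with a median of -0.60. Cd3d fell by 1.47 ± 0.37 (adjusted p = 0.0253) and Klrd1 fell by 0.86 ± 0.24 (adjusted p = 0.0361), and in both genes all day-21 libraries were below all day-14 libraries. Both calls depended on single libraries: no member was called without day-14 replicate 1, 2 or 3 in edgeR, when 9, 6 and 10 members were lower at an unadjusted p under 0.05, and DESeq2 and limma-voom on all libraries called 6 each. Over all genes those leave-outs called 613, 563 and 759 lower, against 1500 in the main fit. Without day-21 replicate 2, Cd4 (-1.16, adjusted p = 0.0116), Cd8a (-1.25, adjusted p = 0.02) and Nkg7 (-1.36, adjusted p = 0.0311) also fell and Gata3 rose, 6 calls in all. Cd27 was at -1.20 ± 0.41 (adjusted p = 0.0689) and Tigit at -1.01 ± 0.54 (adjusted p = 0.218), while Zap70 and Lat were both at -0.26 and Themis and Tbx21 both at -0.09.

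Other genes of T cell receptor signalling moved with the members. Of 21 tested genes, 16 rose and 1 fell at day 14 (median 1.58), and 11 rose and 1 fell at day 21 (median 1.05). Over all 19821 genes tested, 6189 rose and 5701 fell at day 14, and 4821 rose and 3669 fell at day 21. Lcp2, the adaptor SLP-76, had 19, 26 and 12 counts in controls and 311, 213 and 229 at day 14, a rise of 3.28 ± 0.31 (adjusted p = 2.14e-05), and Vav1, a guanine nucleotide exchange factor, rose by 2.67 ± 0.26 (adjusted p = 2.3e-05). Myeloid cells use both proteins as well. The gene that fell was Prkcq, protein kinase C theta, from 268, 201 and 224 counts in controls to 157, 133 and 115 at day 14, named here after its value was seen. Prkcq fell by 1.20 ± 0.27 at day 14 (adjusted p = 0.00269). At day 21 it was at 6.45 CPM in replicate 2 and at 3.15 and 2.98 CPM in replicates 1 and 3, beside 6.06 to 7.95 CPM in controls. The part of cells other than T cells in the Prkcq counts was not tested.

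Genes of T cell transcription and homing rose in 19 of 26 cases at day 14 and fell in 1 (median 1.25), and rose in 11 and fell in 1 at day 21 (median 0.79). The shares of all genes that rose were 31.2% at day 14 and 24.3% at day 21. Cd44, an adhesion receptor of memory T cells that many injured epithelia also make, rose by 5.94 ± 0.36 at day 14 (adjusted p = 1.99e-06). Bcl11b, a factor of T cell commitment that was named after its value was seen, was the gene that fell, by 1.42 ± 0.30 at day 14 (adjusted p = 0.00224). Its counts were 211, 192 and 202 in controls and 126, 90 and 90 at day 14, and every day-14 library was below every control. Cd3g had only 8, 15 and 7 counts in the same controls. At day 21 Bcl11b was at 4.43 CPM in replicate 2 and at 2.2 and 1.48 CPM in replicates 1 and 3, beside 5.78 to 6.26 CPM in controls. The part of cells other than T cells in the Bcl11b counts was not tested.

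Of 20 effector and cytotoxic genes, 11 could be tested and 8 of these rose at days 14 and 21, with medians of 2.48 and 1.42. Of all genes, 31.2% and 24.3% rose at these times. Ccl5, a chemokine stored by T and NK cells, rose by 3.17 ± 0.28 at day 14 (adjusted p = 1.41e-05), from 25, 32 and 12 counts to 325, 226 and 287. Tnf, tumour necrosis factor, rose by 4.50 ± 0.51 (adjusted p = 5.62e-05). The part of macrophages and other cells in the Tnf counts was not tested. Ifng, the type 1 cytokine interferon gamma, was not testable, with 3, 0 and 2 counts in controls and 1, 4 and 3 at day 14. Other cytokine genes of the list were also near 0 at day 14: Il17a had 3, 0 and 3 counts, Il4 had 1, 0 and 1, and Il21 had 0, 0 and 0. Csf2 had 0, 0 and 0 counts in controls and 9, 7 and 9 at day 14. The granzyme gene Gzmm overlapped, at 0.241 to 0.475 CPM in controls and 0.368 to 0.405 CPM at day 14.

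Ligands that T cells meet also rose, at a time (day 14) when 31.2% of all genes rose and 5701 of 19821 fell. Of 7 tested costimulation and checkpoint ligands, 6 rose at day 14 (median 1.47), with Pvr, a ligand of TIGIT, at 1.89 ± 0.21 (adjusted p = 5.03e-05) and Cd80, a ligand of CD28 and CTLA-4, at 3.57 ± 0.50 (adjusted p = 0.000197). Of 11 tested chemoattractants and cytokines for T cells, 6 rose and 1 fell (median 0.70). Cx3cl1, the chemokine fractalkine, rose by 1.56 ± 0.13 (adjusted p = 9.74e-06) and Cxcl10, a ligand of CXCR3, by 2.88 ± 0.26 (adjusted p = 1.62e-05). Cxcl10 had already risen by 2.52 ± 0.26 at day 5 (adjusted p = 0.000146), when 2 members had, and the difference in timing was not tested. Il15, which sustains NK and memory T cells and was named after its value was seen, fell by 1.33 ± 0.24 (adjusted p = 0.000827).

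**Figure D5:**
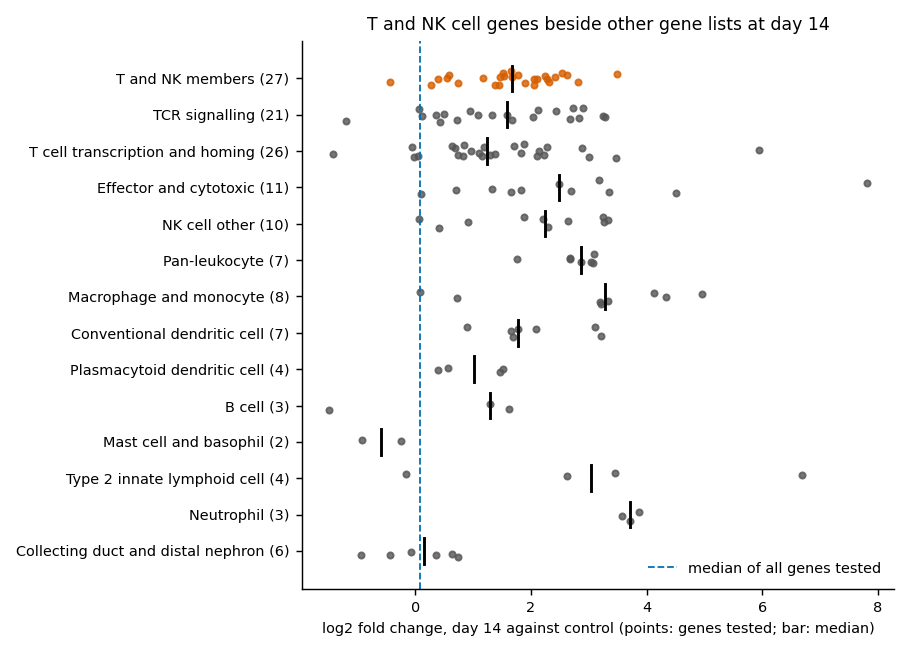
Log2 fold change at day 14 against control of each tested gene of the members and the other lists, with points for genes, black bars for list medians and a dashed line at the median of all genes tested, 0.08. The members have a median of 1.68, beside 2.87 for pan-leukocyte and 3.28 for macrophage and monocyte genes, and the differences between lists were not tested.

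The members rose beside other leukocyte genes. For the counts that follow, 31.2% of all genes rose at day 14 and 24.3% at day 21. All 7 pan-leukocyte genes rose at days 14 and 21, with medians of 2.87 and 1.81, and their summed level went from 33.2 to 40.2 CPM in controls to 226 to 249 CPM at day 14 and 80.9 to 143 CPM at day 21. Of these, Ptprc, which encodes the leukocyte antigen CD45, rose by 2.68 ± 0.16 at day 14 (adjusted p = 1.78e-06) and Cd53 by 3.09 ± 0.19 (adjusted p = 2.61e-06). In the macrophage and monocyte list 7 of 8 genes rose at day 14, with Adgre1 at 3.20 ± 0.14 and Ccr2 at 4.13 ± 0.21, and their sum went from 83.7 to 110 CPM to 751 to 780 CPM. Neutrophil genes rose in all 3 tested cases, with Csf3r at 3.72 ± 0.32 and S100a9 at 3.57 ± 0.44. Ly6g, of the same list, was near the floor, with 0, 0 and 0 counts in controls and 1, 1 and 4 at day 14. In the conventional dendritic cell list Cd209a was at 3.11 ± 0.27 and Itgax at 3.21 ± 0.29. Of 4 tested plasmacytoid dendritic cell genes 1 rose, Bst2 at 1.46 ± 0.14, which is near the share of all genes. Tcf4 was at 0.39 ± 0.16 (adjusted p = 0.0562). Siglech, of the same list, had 15, 13 and 7 counts in controls and 33, 20 and 18 at day 14, and these groups overlapped on the CPM scale.

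The B cell marker Ms4a1 was close to absent. Ms4a1, which encodes CD20, had 6, 10 and 4 counts in controls and 4, 4 and 4 at day 14. Of the 3 tested B cell genes 2 rose, Cd79b at 1.62 ± 0.42 and Blnk at 1.30 ± 0.31. Of 2 tested mast cell and basophil genes, Ms4a2 fell by 0.93 ± 0.27 (adjusted p = 0.0111) and Kit was at -0.24 ± 0.13. Platelet genes showed 1 rise, Pf4 at 3.29 ± 0.61, and 1 fall, Itga2b at -1.34 ± 0.19, and all 5 tubule and 3 of 4 podocyte genes fell at day 14. Over all 19821 genes tested, 6189 rose and 5701 fell at that time.

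Lck and Cd3g were also set against Ptprc within each library. These ratios too were chosen after seeing the data, which the adjustment over the 4 ratios does not cover. Lck to Ptprc was 0.0957, 0.0684 and 0.0894 in controls, 0.109, 0.102 and 0.115 at day 5, 0.0567, 0.0711 and 0.0633 at day 14, and 0.104, 0.11 and 0.129 at day 21. For Lck to Ptprc the groups differed (exact permutation test over 369600 assignments, p = 0.00143, adjusted over the 4 ratios 0.00429), with a log2 ratio 0.45 above control at day 21 and at -0.4 from control at day 14. Each of these 2 differences alone cannot pass with 3 libraries against 3 (exact permutation p = 0.1 and 0.2). Cd3g to Ptprc was 0.0348, 0.057 and 0.0391 in controls and 0.0375, 0.0412 and 0.0439 at day 14, and the groups did not pass (exact permutation p = 0.568). The log2 difference of Cd3g to Ptprc from control was -0.06 at day 14 and 0.14 without control replicate 2, so it has no fixed direction.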

How the data were processed

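Whole-kidney poly(A) RNA from 4 groups of 3 mice, called biological replicates in the series' design text, was sequenced with paired ends. The table the authors deposited holds raw counts for each gene. The submitters' processing notes name fastp 0.20.0, featureCounts and GRCm39. The aligner, annotation, strand setting and handling of shared reads were not given in the sources used here.

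Columns were matched to samples by name. Counts were tested with edgeR 4.0.16 (R 4.3.3). The function filterByExpr kept 19821 of 56722 genes, which were scaled by TMM factors (0.778 to 1.32) and fitted with a quasi-likelihood model of all 12 libraries with 1 coefficient per group. P-values were adjusted by Benjamini-Hochberg over all genes tested and called under 0.05. Errors are standard errors of the fit, the absolute log2 fold change over the square root of F, with n = 3 per group. No 2 libraries held the same values: replicates differed by a chi-square of at least 4.59 per degree of freedom. The fit was tested on simulated data.

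The members and gene lists were chosen with earlier results of these data known. All members were described, and of each other list the 2 genes with the smallest adjusted p at day 14, with defining genes of other cell types. Some genes these rules name are not reported here. The ratios of genes and their tests were chosen after seeing the data. Alternatives were other size factors, library totals, DESeq2 1.42.0, limma-voom (limma 3.58.1), other filters on low counts, a block for the replicate number, fits of just the 6 libraries compared and leave-one-out fits. Sequences came from GENCODE M21 transcripts and RefSeq promoters of GRCm38.p6, whose coordinates are given with them, and gene positions came from the deposited table on GRCm39.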

Additional observations from a re-analysis of the deposited data

Results flagged for a closer look

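The change between successive times was itself tested in edgeR, and these members differed. From day 5 to day 14 the log2 fold change was 2.45 for Foxp3, 2.21 for Pdcd1, 2.06 for Tigit, 1.85 for Cd4, 1.82 for Cd3g, 1.75 for Nkg7, 1.73 for Cd3e, 1.6 for Cd8b1, 1.59 for Trbc2, 1.54 for Cd5 and 1.49 for Cd3d. It was 1.45 for Lck, 1.42 for Zap70, 1.36 for Cd28, 1.26 for Lat, 1.20 for Cd2, 1.19 for Icos, 1.19 for Cd27, 1.15 for Klrd1 and 0.67 for Gata3. The Gata3 call was kept in 0 and those of Cd27, Cd3e and Icos in 1 each of the 6 fits that leave out a day-5 or day-14 library. From day 14 to day 21 it was -1.47 for Cd3d and -0.86 for Klrd1. With 3 libraries per group, single libraries were not tested for standing apart.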

How the results depend on the processing

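The rise of 21 members at day 14 was the firmest count: 16 of these genes were called in every setting in which they were tested, while Cd27, Icos, Nkg7, Tigit and Trbc1 were not. At day 21, 4 of the 13 members called kept their call in every setting, and for day 14 against day 5, 11 of 20 did. The low counts limit all results, and the cause of each change was not tested unless the setting itself tests fewer genes.

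A filter of CPM of at least 1 in 3 libraries left 10 members to test, of which 7 were called at day 14, 6 at day 21, 8 for day 14 against day 5 and 1 for day 21 against day 14. A fit of only the 6 libraries compared called 3 of 17 tested members at day 21, and 0 for day 21 against day 14, where 8 were lower at an unadjusted p under 0.05 in edgeR and DESeq2 and limma-voom on all libraries called 6 each. Over all genes that fit called 1286 higher and 345 lower at day 21, against 4821 and 3669 in the main fit. For day 21 against day 14 it called 56 higher and 207 lower, against 1393 and 1500, so the loss of calls was not particular to the members. At day 5 DESeq2, limma-voom, no filter on low counts and the replicate block called 1 each. For day 21 against day 14, library totals called 9 members, DESeq2 6, limma-voom 6, and no filter 1.

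Leaving out single libraries gave 0 to 2 members at day 5, with 0 without control replicate 2 or 3 or any day-5 library, when 6, 3, 3, 2 and 3 members were higher at an unadjusted p under 0.05. It gave 18 to 24 at day 14, 9 to 15 at day 21, 13 to 23 for day 14 against day 5, and 0 to 6 for day 21 against day 14. Without day-21 replicate 2 the counts were 24 at day 14 and 15 at day 21. With library totals, 13158 genes were higher and 2211 lower at day 14, against 6189 and 5701, and 24 members were called.

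With the replicate number as a block, the counts of members called were 1 at day 5, 21 at day 14, 11 at day 21, 18 for day 14 against day 5 and 1 for day 21 against day 14. The data did not show a pairing: deviations of same-numbered libraries from their group means correlated at -0.14 to 0.17, and not every library correlated best with its own number.

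Members that were not called changed sign in some settings. With library totals, day 5 gave 0.10 for Trbc2, 0.06 for Cd8a, 0.01 for Cd8b1, 0.12 for Cd27, 0.05 for Gata3 and 0.01 for Klrb1c, day 21 gave 0.22 for Cd8a, 0.43 for Cd27 and 0.10 for Klrb1c, and Klrb1c was at 0.30 at day 14, 0.28 for day 14 against day 5 and -0.20 for day 21 against day 14. In limma-voom, day 5 gave 0.12 for Cd27, 0.00 for Tbx21 and 0.05 for Eomes, day 21 gave 0.10 for Cd27, and Tbx21 was at 0.07 for day 21 against day 14. Without single libraries, day 5 gave -0.71 to 0.44 for Tigit, -0.34 to 0.23 for Trbc2, -0.36 to 0.26 for Cd8a, -0.43 to 0.16 for Cd8b1, -0.24 to 0.95 for Foxp3, -0.74 to 0.25 for Eomes, -0.31 to 0.47 for Tbx21, -0.28 to 0.86 for Cd3e, -0.45 to 0.45 for Cd27 and -0.16 to 0.48 for Cd28. Eomes ran from -0.22 to 0.77 at day 14, and at day 21 Eomes ran from -0.42 to 0.56, Cd8a from -0.51 to 0.13 and Cd27 from -0.46 to 0.44. Klrb1c ran from -0.32 to 0.31 for day 14 against day 5. For day 21 against day 14 the ranges were -0.52 to 0.01 for Lat, -0.45 to 0.30 for Tbx21, -0.68 to 0.06 for Eomes, -0.11 to 0.20 for Klrb1c and -0.76 to 0.28 for Themis. The day-14 log2 ratio of Cd3g to Ptprc ran from -0.21 to 0.14 against a main value of -0.06, that of Cd8a to Cd4 from -1.89 to -1.27, and that of Lck to Ptprc from -0.54 to -0.3. These leave-outs of the ratios were chosen after seeing the data.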
